A study of Caenorhabditis elegans with 3 samples.

Results

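The thresholded peak list for EGL-27 placed several separate summits inside each of 3 long genes of the nematode Caenorhabditis elegans, ccch-1, pqn-41 and ppfr-1, in larvae of the first stage (L1). Of the 4 summits in pqn-41, all 4 lay inside the highest regions of every replicate, meaning its 524 highest by signal. The same held for 134 of the 524 summits of that list. When any 1 replicate was left out, a summit had to be among the highest regions of both others. Then ccch-1 held 1 to 2 of its 4 and ppfr-1 held 1 of its 3. These counts follow from the overlap, since every summit of ccch-1 and ppfr-1 lay in the highest regions of exactly 2 replicates. Of all 524 summits of that list, 216, 200 and 187 stayed without replicates 1, 2 and 3, so such a loss was common. The genes were chosen by a count. They are the protein-coding genes that hold 3 or more summits of that list inside the gene body, apart from egl-27 itself and zfp-1. They are 3 of 19973 protein-coding genes, and they hold 11 of the 524 regions of that list. A summit is the base at which the authors placed the highest point of a region. Because the count chose the genes, the number of summits in them is a description, and no test was made of it.

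Binding was read from ChIP-seq (chromatin immunoprecipitation followed by sequencing), in which DNA bound by a protein is pulled down with an antibody, sequenced and compared with control DNA. Per the labels, the 3 biological replicates were whole L1 larvae of mixed sex from strain OP177, genotype unc-119(ed3) III; wgIs177, a transgenic line that stably carries EGL-27 with GFP-FLAG at its C-terminus. The antibody is given as egl-27, and the age beyond the larval stage is unknown. There was 1 group and no second condition, so all comparisons are between places in the genome and between replicates. Whole animals were used, so no bound region can be given to a cell type. The authors' irreproducible discovery rate (IDR) list, called the IDR list here, holds the regions left by their IDR threshold. The list equals the 524 highest pooled regions by signal, and its regions need not be high in every replicate. Its signal values, the authors' own measure of height on a scale that is not stated, ran from 28.9 to 166.1 with a median of 38.3. Longer relaxed lists hold peaks together with background. They numbered 30000 regions for the replicates pooled, 30000 in replicate 1, 30000 in replicate 2 and 13516 in replicate 3. The files hold no read counts, so depth is unknown.

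EGL-27 carries a zinc finger of the GATA type and resembles the MTA proteins of nucleosome-remodelling and deacetylase complexes. It is known for roles in cell polarity, cell migration and stress responses in worms. Proteins of this kind act at promoters and at enhancers, and in long genes enhancers and internal promoters often lie inside introns. Of the genes described, ccch-1 encodes a CCCH zinc finger protein of the TIS11 or tristetraprolin type, a family best known in mammals for binding messenger RNA. The gene pqn-41 encodes a glutamine- and asparagine-rich, prion-like protein that is needed for the non-apoptotic death of the male linker cell. The gene ppfr-1 encodes a regulatory subunit of protein phosphatase 4, which in the early embryo acts with the catalytic subunit PPH-4.1 on the microtubule-severing protein MEI-1 (katanin).

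The DNA around the summits of pqn-41 and around 1 summit of ccch-1 is shown because these hold the highest regions of each gene. Summits are numbered from the 5′ to the 3′ end of the gene. Each sequence is 201 bases from RefSeq, build WBcel235 (ce11), plus strand, which is the coding strand of both genes. In order, the windows lie at chrIII:1921245-1921445, chrIII:1923656-1923856, chrIII:1925239-1925439, chrIII:1926509-1926709 and chrV:11532294-11532494, and none overlaps an annotated UTR. Capitals mark GAGAGA or its complement TCTCTC and 2 words that recur in the windows, GTCGTGTTCTCT and TCTGCGTCT. Matches that overlap run together.
pqn-41 summit 1: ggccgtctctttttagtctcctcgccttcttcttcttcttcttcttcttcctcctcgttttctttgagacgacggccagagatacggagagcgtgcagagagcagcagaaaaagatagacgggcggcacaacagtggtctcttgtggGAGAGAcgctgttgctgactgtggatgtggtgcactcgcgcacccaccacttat
pqn-41 summit 2: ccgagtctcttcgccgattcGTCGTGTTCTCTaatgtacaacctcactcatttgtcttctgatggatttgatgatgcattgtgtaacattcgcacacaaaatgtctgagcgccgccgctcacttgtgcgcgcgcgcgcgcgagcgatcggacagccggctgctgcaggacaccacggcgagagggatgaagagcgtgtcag
pqn-41 summit 3: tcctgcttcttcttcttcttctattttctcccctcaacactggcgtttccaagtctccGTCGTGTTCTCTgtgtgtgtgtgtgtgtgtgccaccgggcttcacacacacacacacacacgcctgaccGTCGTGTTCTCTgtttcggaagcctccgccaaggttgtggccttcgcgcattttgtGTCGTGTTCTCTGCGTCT
pqn-41 summit 4: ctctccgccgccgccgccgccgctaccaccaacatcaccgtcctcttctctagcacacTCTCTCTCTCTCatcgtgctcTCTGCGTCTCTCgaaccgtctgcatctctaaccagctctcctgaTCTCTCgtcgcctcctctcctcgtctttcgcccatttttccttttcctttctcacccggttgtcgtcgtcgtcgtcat
ccch-1 summit 3: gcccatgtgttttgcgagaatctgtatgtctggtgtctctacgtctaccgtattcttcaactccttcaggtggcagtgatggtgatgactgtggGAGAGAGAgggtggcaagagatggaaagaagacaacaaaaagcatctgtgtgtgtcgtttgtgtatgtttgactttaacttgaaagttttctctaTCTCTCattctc

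The most strongly bound of these genes was pqn-41, where all 4 summits lay in 1 intron. The gene (WBGene00004128, chromosome III, 1905958 to 1939570, plus strand) is 33613 bp long, the 35th longest of the protein-coding genes. Its summits had pooled signals of 61.3, 80.7, 123.4 and 70.2, so all 4 stood above the median of the IDR list. The third summit was the 4th highest of all 524 regions. The summits were spread over 5264 bp, with gaps of 2411, 1583 and 1270 bp. The next IDR summit outside the gene lay 10857 bp past its 3′ end, and 286856 bp away on the 5′ side.

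All 4 pqn-41 summits fell in intron 14 of F53A3.4b.1, the transcript with the most exons. This intron (1917305 to 1927676) is 10372 bp long, takes up 30.9% of the gene and ranks 132nd in length among 103616 introns. It lies between the 5′ exons of the long transcripts a, b and c and the 3′ exons that the shorter d transcripts use as well. F53A3.4d.1 starts inside the intron at 1919571, and summit 1 lay 1774 bp downstream of that start. F53A3.4d.2 and F53A3.4d.3 start at 1927671 and 1927675, at the 3′ end of the intron. Summits 2, 3 and 4 lay 3915, 2332 and 1062 bp upstream of the first of these starts. Each summit was thus intronic in 4 of the 6 annotated transcripts and outside the other 2.

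In ccch-1, too, all 4 summits lay in 1 intron, and here 1 of them stood just upstream of an alternative transcript start. The gene (WBGene00009532, chromosome V, 11527831 to 11541219, plus strand) is 13389 bp long and has 2 annotated transcripts. Its summits had pooled signals of 40.5, 30.4, 55.0 and 40.98, with IDR ranks of 221, 466, 95 and 214. They were spread over 3443 bp with gaps of 1628, 1066 and 749 bp. The nearest IDR summits outside the gene were 31817 bp from its 3′ end and 445191 bp from its 5′ end. Intron 3 of F38B7.1a.1 (11528201 to 11536055), which held them all, is 7855 bp long and takes up 58.7% of the gene.

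The shorter ccch-1 transcript, F38B7.1b.1, starts inside this intron at 11532613. The strongest ccch-1 summit, number 3, lay 219 bp upstream of that start, and summit 2 lay 1285 bp upstream of it. Summit 4 lay 530 bp downstream, in the first intron of the short transcript as well as in intron 3 of the long one. Summit 1 was nearer to the start of the long transcript, 1869 bp downstream of it. A pair of noncoding RNA genes on the opposite strand, F38B7.15 and F38B7.16, begin 144 and 164 bp from summit 3.

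In ppfr-1 the 3 summits occupied 2 neighbouring introns, and their median signal was the lowest of the 3 genes. The gene (WBGene00008878, chromosome I, 9364099 to 9389982, minus strand) is 25884 bp long with 4 annotated transcripts. Its summits had pooled signals of 32.4, 31.6 and 36.1 from 5′ to 3′, all under the IDR median, though above the 30.4 of ccch-1 summit 2. Summit 1 (9383930) lay in intron 6 of F16A11.3d.1, which is 5374 bp long. Summits 2 (9381867) and 3 (9381371) lay 496 bp apart in intron 7, which is 10404 bp long, 40.2% of the gene. All 4 transcripts start between 9389584 and 9389982, and the nearest start was 5654, 7717 and 8213 bp upstream of summits 1, 2 and 3. No summit of ppfr-1 was therefore near an annotated start of its own gene.

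The introns of ppfr-1 also hold other genes. The microRNA gene cel-mir-71, known for its effect on adult lifespan, lies on the same strand inside intron 7 at 9379927 to 9380020. Summits 3, 2 and 1 lay 1351, 1847 and 3910 bp upstream of its hairpin. A further pooled region stood between summit 3 and the hairpin, 343 bp upstream of the latter. Its signal of 27.6 gave it rank 581, just under the last IDR region. A second microRNA gene, cel-mir-2, lies in the same intron, 8506 bp downstream of summit 3. Antisense and noncoding RNA genes are annotated there as well, including F16A11.13, 34 bp from summit 2, and anr-20, 591 bp from it.

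**Figure D1:**
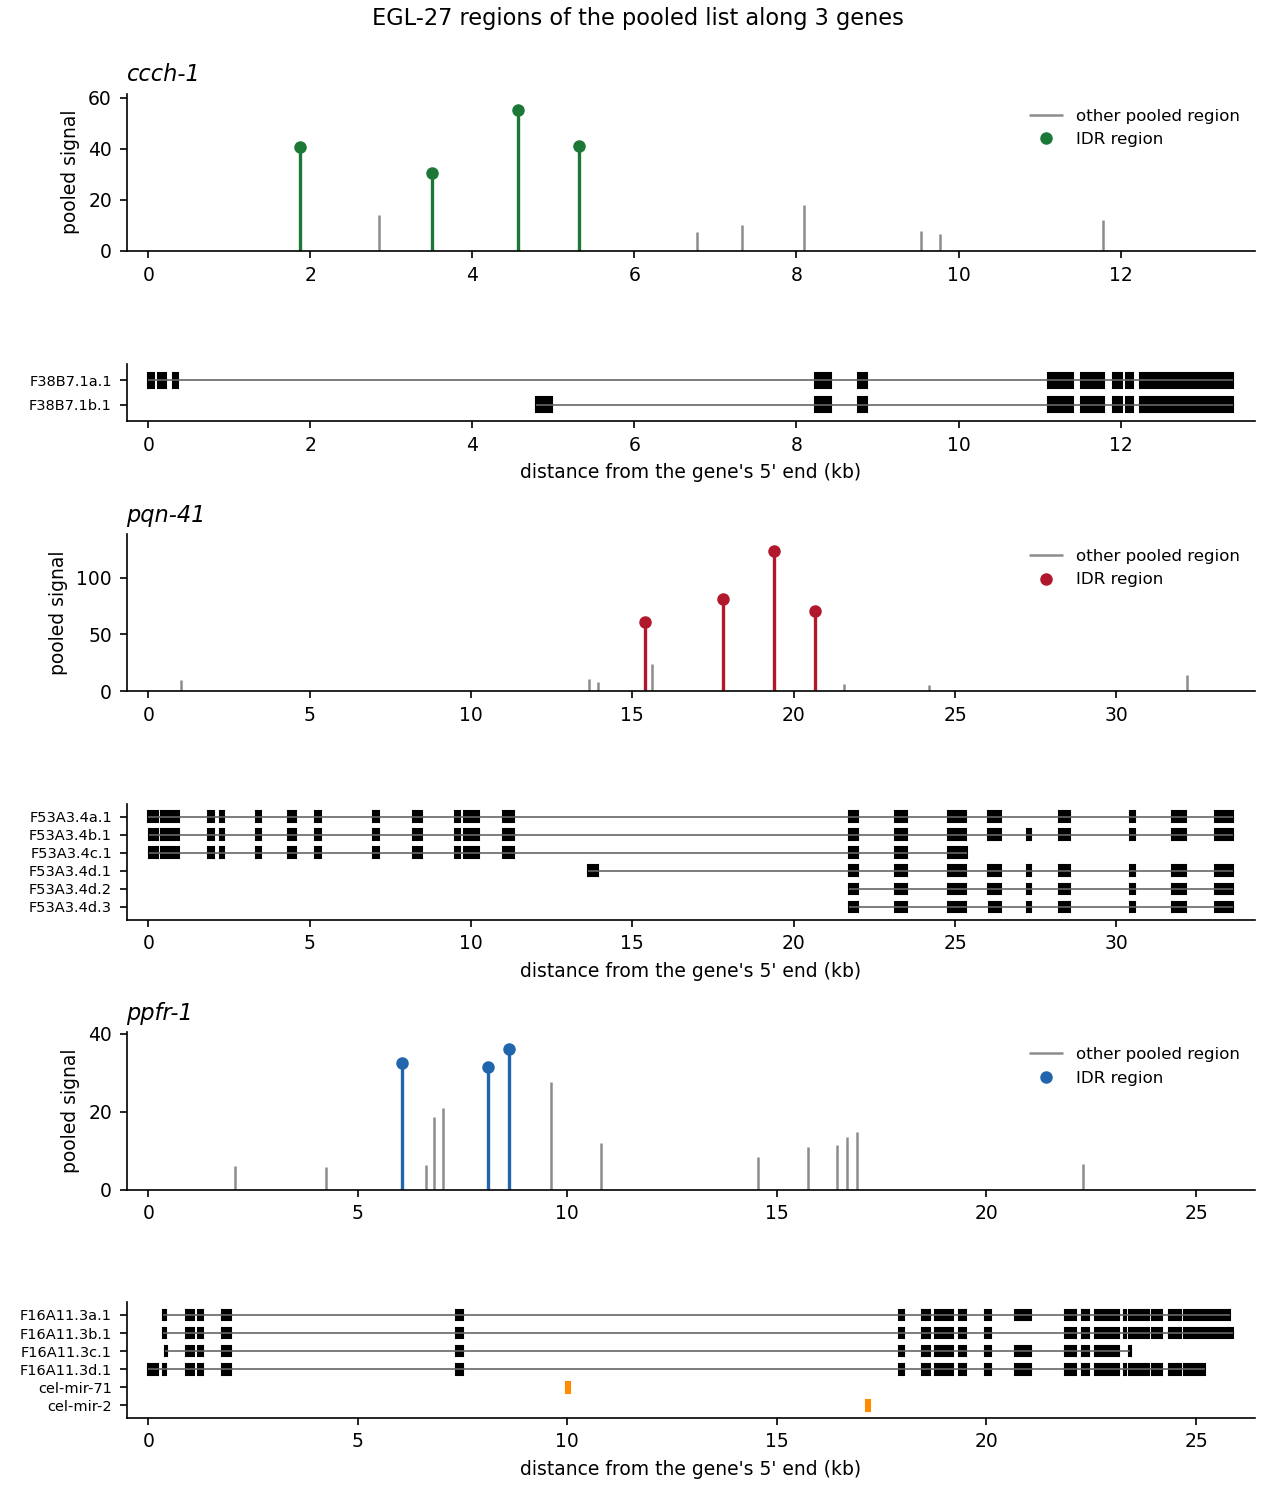
Pooled signal (vertical axis, the authors' scale, which differs between panels) of every pooled region against distance from the gene's 5′ end in kb, with annotated exons as black boxes and microRNA hairpins in orange. Coloured stems with dots are the 11 IDR regions, which stand in 1 intron in ccch-1 and pqn-41 and in 2 introns in ppfr-1, and grey stems are the other pooled regions.

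All 11 summits lay in an intron and in no exon of any transcript of their gene. Of the 131 IDR summits inside other protein-coding genes, 113 (86.3%) did so, so intronic placement was the common case. Near a transcript start of the same gene, from 1000 bp upstream to 200 bp downstream, lay 1 of the 11, ccch-1 summit 3. The share in the other genes was 43 of 131 (32.8%). The 131 include 6 summits of egl-27 and 5 of zfp-1, with 24 and 11 annotated transcripts, against 2 to 6 in the 3 genes. Of the 96 genes with 1 IDR summit, 21 are at least as long as ccch-1. The part of gene length in these shares was not tested. With the window widened to 2000 bp upstream the count in the 3 genes was 3, since pqn-41 summit 4 and ccch-1 summit 2 then fell within it. The share in the other genes was then 57 of 131 (43.5%).

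In windows of the same size at the first annotated start of each of the 3 genes there was no IDR summit and no pooled region. This was the more common case: 38.7% of all protein-coding genes, and 40.7% of the 531 at least as long as ccch-1, had a pooled region there. For ccch-1 no list held a region there at all. For pqn-41 each replicate held 1 weak region, with signals of 3.32, 4.80 and 2.02 in replicates 1, 2 and 3. For ppfr-1 replicate 1 alone held a region, with a signal of 4.78. The internal start of F53A3.4d.1 in pqn-41 had 1 pooled region of signal 10.6, and the starts of F53A3.4d.2 and F53A3.4d.3 shared 1 of signal 6.47.

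Few introns carry so many summits, though the genes were chosen by such a count. Only 3 of 103616 introns held 3 or more IDR summits: the host introns of pqn-41 and ccch-1 with 4 each, and an intron of zfp-1, a gene for a PHD finger chromatin protein, with 3. Of the 586 introns at least as long as the shortest host intron, 36 held at least 1 summit, 9 held at least 2 and 2 held at least 3. Those 2 were the host introns of pqn-41 and ccch-1.

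Over whole genes such counts were rare too, and this is the count that chose the 3 genes. Genes with 3 or more summits were 5 of 19973 (0.025%), namely the 3 described, egl-27 with 6 and zfp-1 with 5. The median protein-coding gene is 2027 bp long, and 531 genes are at least as long as ccch-1. Of these, 31 (5.84%) held at least 1 summit and 4 (0.753%) held 3 or more. The other 500 held none. The protein-coding genes next in length to each of the 3 had none either: picd-1 and lgx-1 beside ccch-1, kcc-2 and pde-3 beside pqn-41, and Y75B7AL.2 and ketn-1 beside ppfr-1. Per kb of gene, IDR summits numbered 0.299 in ccch-1, 0.119 in pqn-41 and 0.116 in ppfr-1.

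**Figure D2:**
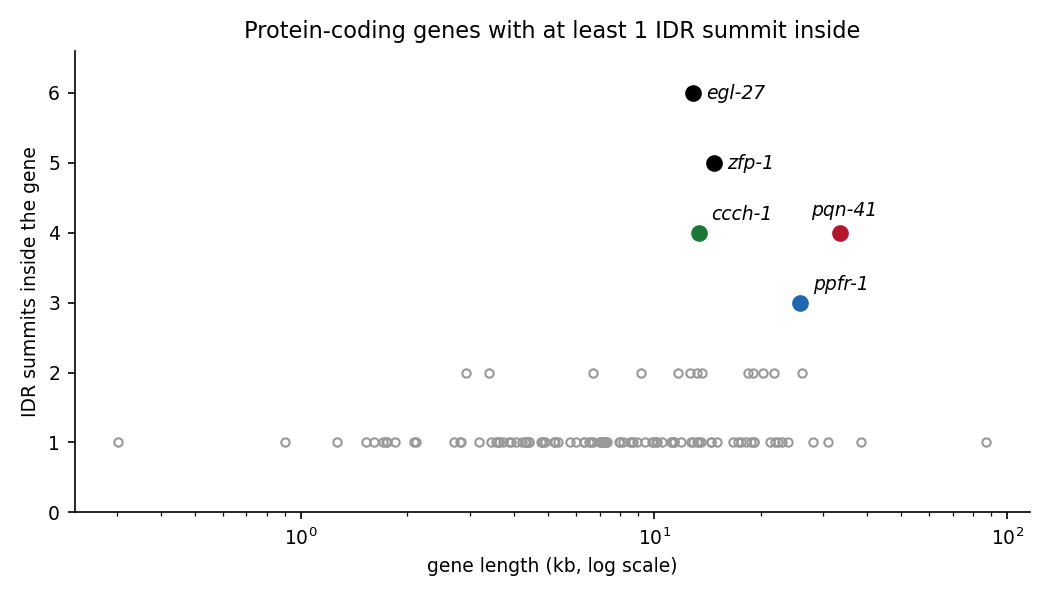
Number of IDR summits inside each protein-coding gene with at least 1 (vertical axis) against gene length in kb (log scale), 1 point per gene. The 3 genes and the left-out egl-27 and zfp-1 are the 5 points at 3 or more, and many genes as long or longer have 1 summit.

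At the limit of the rule, ppfr-1 was just inside with 3 summits and a summed signal of 100.1. Just outside were 13 genes with exactly 2, from 2929 to 26206 bp long, with summed signals of 59.9 to 133.86. The 5 highest were nhr-3, a nuclear hormone receptor gene, with 133.86, Y43F8B.2 with 110.6, daf-5, a Ski-related gene of the dauer TGF-beta pathway, with 108.01, kin-20, a casein kinase gene, with 103.8, and the trehalase gene tre-2 with 98.9. The first 4 of these summed to more than ppfr-1 did with 3 summits. The summed signals of pqn-41 (335.6) and ccch-1 (166.89) lay above those of all 13, and that of pqn-41 was close to those of egl-27 (349.0) and zfp-1 (334.9). The strain also carries EGL-27 as a transgene, and the part of the transgene in the egl-27 values was not tested.

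Replicates differed between the genes. The replicate lists come from the same reads as the IDR list, so some overlap is built in, and their signal scales may differ, so ranks within each list are given beside the values. The highest regions of a replicate are taken as its 524 highest by signal, as many as the IDR list holds. All 4 pqn-41 summits lay in the highest regions of all 3 replicates. Every ccch-1 summit and every ppfr-1 summit lay in those of exactly 2. The missing replicate was not the same from summit to summit.

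In pqn-41, summit 1 had signals of 12.99 (rank 247), 33.1 (rank 27) and 24.6 (rank 59) in replicates 1, 2 and 3. The region that held it had its own summit 156 bp away in replicate 1 and 112 bp away in replicate 3. The nearest replicate 1 summit, 45 bp away, had 5.30 (rank 5113) and was not in the highest regions. Summit 2 had 39.0 (rank 2), 23.3 (rank 105) and 26.2 (rank 48). Summit 3 had 21.1 (rank 41), 37.1 (rank 17) and 66.8 (rank 1). It was thus the highest region of replicate 3, while in replicate 1 summit 2 took that place within the gene. Summit 4 had 16.2 (rank 107), 25.6 (rank 71) and 26.3 (rank 45). The order of the 4 summits differed in each replicate.

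In ccch-1, summit 1 had signals of 11.4 (rank 359), 12.6 (rank 676) and 16.9 (rank 195) in replicates 1, 2 and 3. Summit 2 had 11.0 (rank 401), 13.8 (rank 512) and 5.84 (rank 2062). Summit 3, beside the alternative start, had 8.12 (rank 1136), 25.9 (rank 67) and 21.4 (rank 97). It was among the 100 highest regions of replicates 2 and 3 but low in replicate 1. Summit 4 had 15.0 (rank 380) in replicate 2 and 22.6 (rank 84) in replicate 3. No replicate 1 region held it, and the nearest replicate 1 summit was 334 bp away with a signal of 3.73 (rank 12725). Replicate 1 was thus weak over the pair of summits that flank the start of F38B7.1b.1.

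In ppfr-1, summit 1 had signals of 5.95 (rank 3529), 15.1 (rank 369) and 11.4 (rank 494) in replicates 1, 2 and 3. Summit 2 had 10.7 (rank 438), 16.6 (rank 266) and 5.41 (rank 2390). Summit 3 had 12.2 (rank 308), 9.60 (rank 1932) and 23.2 (rank 74). Each replicate was low at a different summit: replicate 1 at summit 1, replicate 2 at summit 3 and replicate 3 at summit 2.

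**Figure D3:**
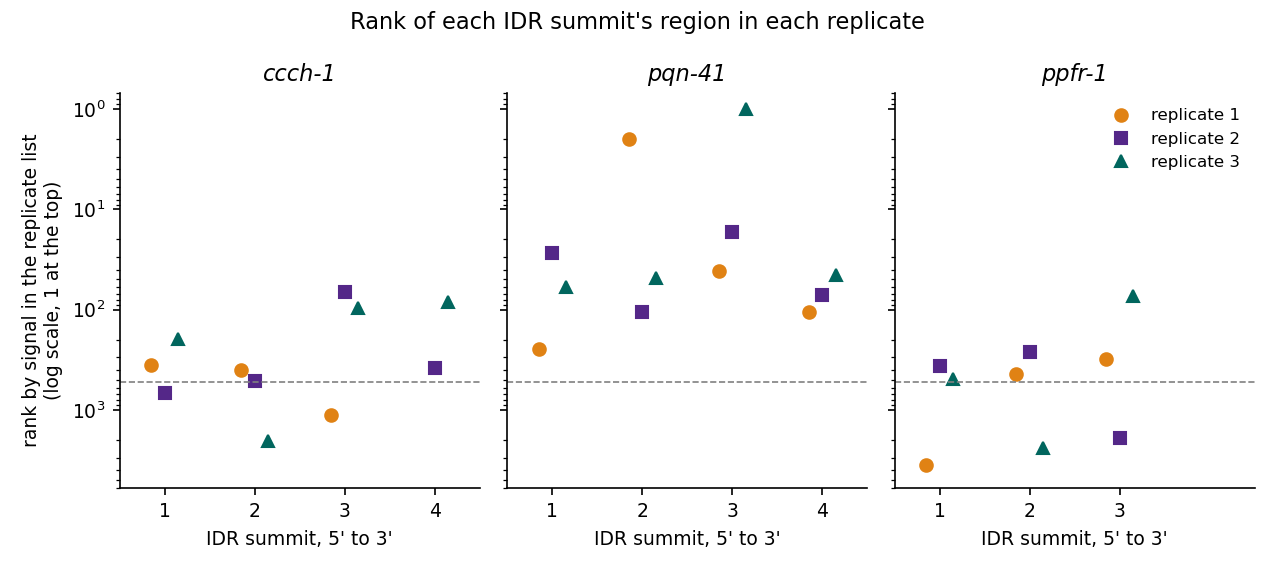
Rank by signal (log scale, 1 at the top) of the region that holds each IDR summit in each replicate list, with the dashed line at rank 524. All 12 points of pqn-41 stand above the line, whereas each summit of ccch-1 and ppfr-1 has 1 replicate under it or, for ccch-1 summit 4 in replicate 1, no region.

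Summed over the genes, 8, 9 and 9 of the 11 summits lay in the highest regions of replicates 1, 2 and 3. The shares of all IDR summits were 57.4%, 61.8% and 66%. In all 3 replicates at once lay 4 of the 11, against 25.6% of all IDR summits, and those 4 were the pqn-41 summits. Summits of 1 gene lie within a few kb of each other and are not independent, so these counts were not tested. The median pooled signal of the 11 was 40.98, that of the 131 IDR summits inside other protein-coding genes 39.3, and that of the whole list 38.3.

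Below the IDR threshold the genes held further regions. Beside its IDR regions, ccch-1 had 7 further pooled regions, 4 of them in intron 3, pqn-41 had 7, 4 of them in intron 14, and ppfr-1 had 13, 12 of them in introns 6 and 7. In the replicate lists, regions that held no IDR summit numbered 5, 5 and 7 in ccch-1 for replicates 1, 2 and 3, with 3, 3 and 6 in the host intron. In pqn-41 they numbered 8, 11 and 3, with 4, 5 and 1 in the host intron. In ppfr-1 they numbered 10, 12 and 11, with 8, 10 and 9 in the host introns. In every list most further regions of ccch-1 and ppfr-1 lay in the host introns, which was not so in any replicate list of pqn-41. Replicate 3, whose list is the shortest, had the fewest further regions in pqn-41 but not in ccch-1 or ppfr-1.

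Per kb, pooled regions with the IDR regions included numbered 0.822 in ccch-1, 0.327 in pqn-41 and 0.618 in ppfr-1. Over the 531 genes at least as long as ccch-1 the pooled density was 0.302, and over all protein-coding genes 0.282. The density of pooled regions in pqn-41 was thus close to that of other long genes, although its signals were the highest of the 3. Its 11 pooled regions stood above the median of 5 in these 531 genes, whose median length is 17920 bp against its 33613 bp. In the genes next in length the pooled list had 2 regions in picd-1, 1 in lgx-1, 8 in kcc-2, 9 in pde-3, 13 in Y75B7AL.2 and 13 in ketn-1. Against the 13 of both neighbours, ppfr-1 had 16. In replicates 1, 2 and 3 it had 13, 15 and 14 regions, Y75B7AL.2 had 5, 16 and 4, and ketn-1 had 7, 15 and 1.

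The strongest region left outside the IDR list had a pooled signal of 18.0 (rank 1656) in ccch-1 and lay at the 3′ end of intron 3. In pqn-41 it had 24.5 (rank 778) and lay in intron 14 only 207 bp from summit 1. In replicates 2 and 3 a single region held both positions. In ppfr-1 it was the region upstream of cel-mir-71 described above, with replicate signals of 4.79 (rank 6860), 9.96 (rank 1687) and 7.19 (rank 1379). It was in the highest regions of no replicate.

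**Figure D4:**
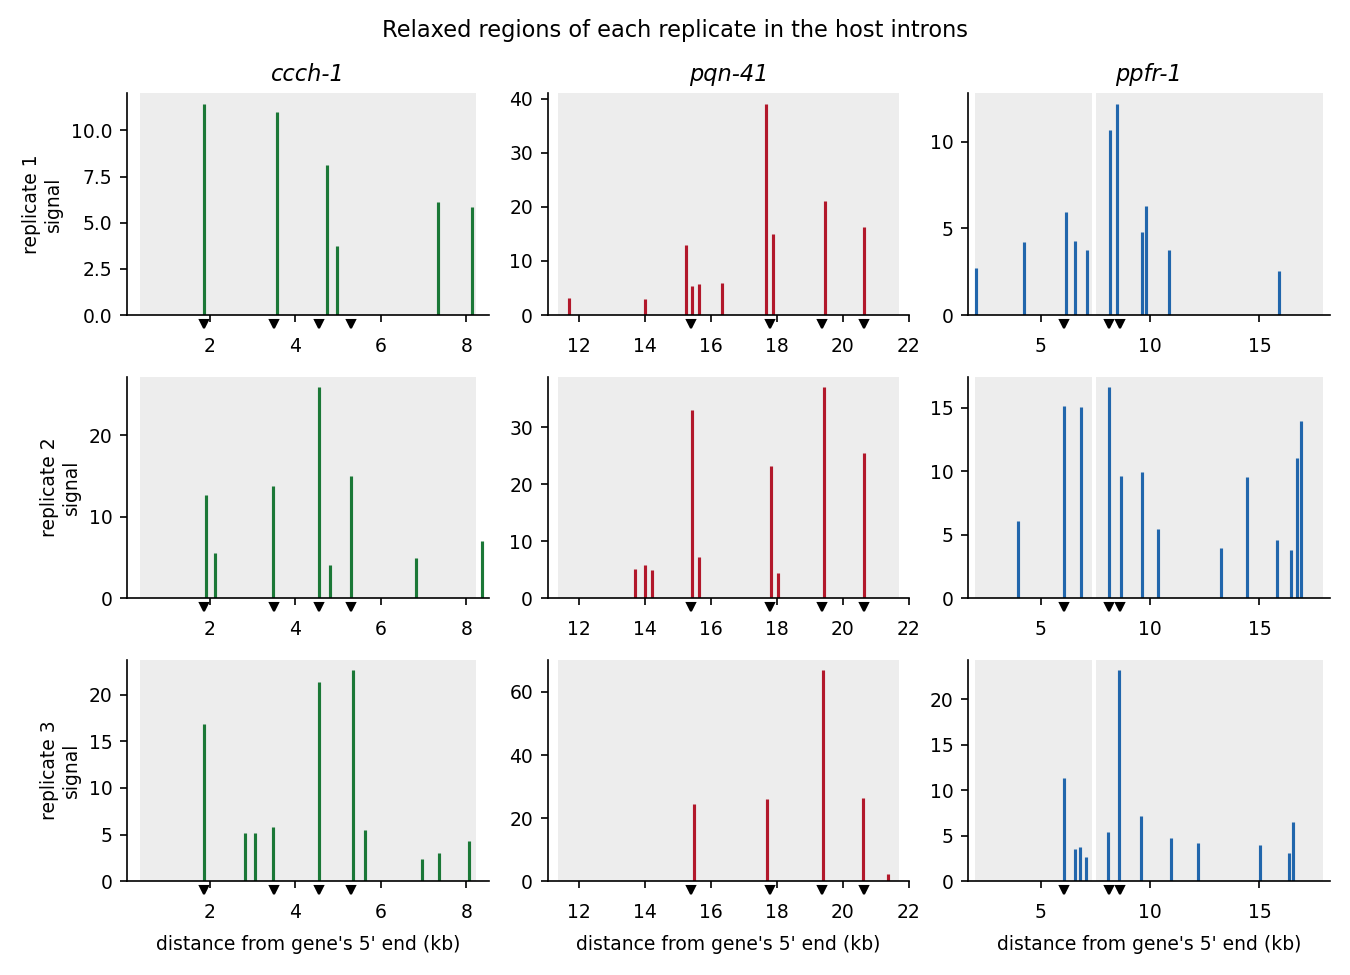
Signal of every relaxed region (vertical axis, the authors' scale for each replicate) against distance from the gene's 5′ end in kb, for replicates 1 to 3 from top to bottom, with the host introns shaded and black triangles at the IDR summits. In pqn-41 the regions at the 4 summits are among the tallest in each replicate, while in ccch-1 replicate 1 has no region at the fourth triangle.

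The windows around the summits were compared with 117073 windows of the same length tiled over introns, bound ones included, and with all 524 IDR windows. All motifs were searched on both strands within 100 bp of the summit. GAGAGA was in 4 of the 11 windows (36.4%), in 296 of all IDR windows (56.5%) and in 8.06% of intron windows. The 4 were ccch-1 summit 3, pqn-41 summits 1 and 4 and ppfr-1 summit 3. In pqn-41 summit 4, printed above, GAGAGA or its complement occurred 6 times counting overlaps. The third pqn-41 summit, the strongest, had none. Windows tiled over the 4 host introns held GAGAGA in 22.8%.

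CACGTG, the E-box, was in 1 of the 11 windows (ppfr-1 summit 3), in 11.3% of IDR windows and in 2.78% of intron windows. CCGCCC was in 2 (pqn-41 summit 1 and ppfr-1 summit 3), in 11.5% and in 3.39%. A GATA site, TGATAA, was in 0 of the 11, in 7.25% of IDR windows and in 16.3% of intron windows. TAATTA was in 0, in 2.10% and in 10.5%, and TATAAA in 0, in 8.59% and in 23.5%. Windows tiled over the host introns held CACGTG in 2.40%, CCGCCC in 6.59%, TGATAA in 10.8%, TAATTA in 7.19% and TATAAA in 16.8%. With only 11 windows, the counts of 0 were not tested against these shares. A match is a description of the letters, and no match says only that these letters are not in the window.

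A pair of longer words was picked from the pqn-41 and ccch-1 windows after the sequences were seen. Words with fewer than 6 different runs of 3 letters, such as repeats of CTT, were set aside. The first is the most repeated word of 12 letters among the rest. The second is the word of 9 letters, among those in at least 2 of these windows, that is most common in IDR windows. Its share there was thus chosen to be high. GTCGTGTTCTCT occurs 3 times in the window of summit 3 and 1 time in that of summit 2, as the capitals show. It was in 4 of 524 IDR windows (0.763%) and in 6 of 117073 intron windows (0.00513%). Since 2 of the 4 IDR windows are those it was picked from, its share there was partly set by the choice, and 2 of the 513 IDR windows outside the 3 genes held it. TCTGCGTCT is in the windows of summits 3 and 4. In summit 3 it overlaps the last copy of the longer word, and in summit 4 it overlaps a TCTCTC. It was in 98 IDR windows (18.7%) and in 1.09% of intron windows. No statement about a bound factor follows from these letters.

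The bound windows were richer in G and C than introns are. GC content in the 11 ran from 41.8% to 58.7% with a median of 53.2%. The median was 47.3% for all IDR windows, 31.8% for intron windows and 38.8% for windows tiled over the host introns. All 4 pqn-41 windows were at 53.2% or above. The ccch-1 windows of summits 1, 2 and 3 were at 42.3%, 41.8% and 43.8%, and that of summit 4 was at 54.7%. In ppfr-1 the values were 50.7%, 48.3% and 58.7% for summits 1, 2 and 3. AT-rich motifs such as TATAAA are rarer in GC-rich DNA, and the part of base composition in the motif counts was not tested.

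**Figure D5:**
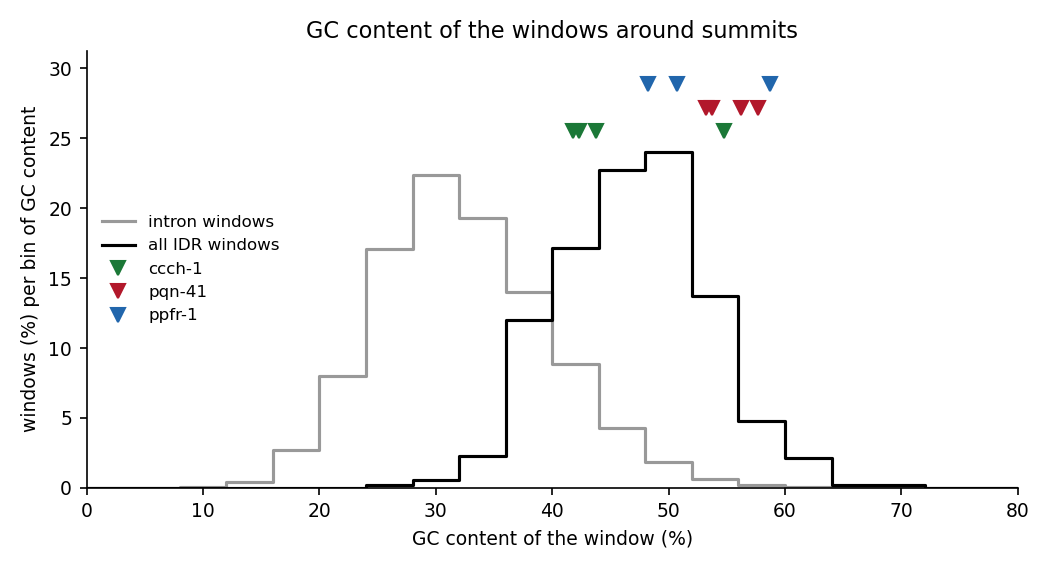
Share of windows (vertical axis, percent per bin) by GC content (horizontal axis, percent) for all 524 IDR windows in black and 117073 intron windows in grey, with triangles at the 11 summit windows by gene. All 11 triangles lie at or above 41.8%, to the right of the intron median of 31.8%.

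Few other genes of the pathways and families of these 3 were bound. A gene was counted as bound if an IDR summit lay inside it or in the window from 1000 bp upstream to 200 bp downstream of its start, which held for 2.06% of all protein-coding genes. Of the 5 other genes of the protein phosphatase 4 list, among them pph-4.1 and smk-1, 0 were bound. Of the 5 others of the MEI-1 katanin list, which include mei-1, mei-2 and mel-26, 0 were bound. Of the 12 others of the linker cell death list, 1 was bound: let-70, for a ubiquitin-conjugating enzyme, with a summit of signal 34.2 lying 696 bp upstream of its start. Of the 12 other CCCH zinc finger genes, 1 was bound: mex-1, a maternal gene of the germ lineage, with a summit of signal 33.8 lying 910 bp upstream. Of the 55 other genes named pqn, 0 were bound. With lists this short, 0 or 1 bound gene is near the background share.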

How the data were processed

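Peak lists of EGL-27 ChIP-seq were described for 1 group of 3 biological replicates, numbered as in the labels. The authors deposited, per the file headers and names, an IDR list and relaxed lists of peaks with background for each replicate and for the pool. The signal of a region is its height as deposited by the authors, on an unstated scale. The software for alignment and peak calling is not given in the sources used here. Depth per sample is unknown. Lists on ce10, control data and signal tracks were not analysed here.

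Regions were placed by summit on ce11 (WBcel235), 1-based, with genes of Ensembl release 115. Sequences are from RefSeq. Intron numbers follow the transcript with the most exons. The IDR list was the 524 highest pooled regions by signal. No test was made, since the genes were chosen by their summit count. The genes, gene lists and motifs were chosen with earlier results of these data known. Named genes were the 3 genes, egl-27, zfp-1, the 5 genes with 2 summits and the highest summed signal, the neighbours in length, overlapping genes and bound list members. Of the linker cell death list, btbd-2 was not matched. Counting was tested on simulated data. Python 3.11.15, numpy 2.4.6, pandas 2.3.3 and matplotlib 3.10.9 were used.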

Additional observations from a re-analysis of the deposited data

How the results depend on the processing

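The 4 pqn-41 summits stayed 4 in the highest 50% of the IDR list, which their IDR ranks of 64, 29, 4 and 45 fixed. They also stayed 4 in every set that left out a replicate. That was fixed by their place in the highest regions of all 3 replicates, and it adds no support. Sets without a replicate are the IDR summits in the highest regions of both other replicates, and IDR was not rerun. In these sets ccch-1 held 1 to 2 summits and ppfr-1 held 1 to 1, against 4 and 3. This too was fixed, since each of their summits lay in the highest regions of exactly 2 replicates. In the highest 50% ppfr-1 held 0. Genes with 3 or more summits numbered 13 with the 1000 highest pooled regions and 3 to 3 without a replicate, each time egl-27, pqn-41 and zfp-1, against 5.

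Intronic summits were 6 to 7 without a replicate, and those near a transcript start 0 to 1, or 3 with 2000 bp upstream. With 50% as many highest regions per replicate, 4 summits were shared with replicate 1 and 5 with replicate 2. With replicate summits required within 100 bp, 6, 9 and 8 were shared with replicates 1, 2 and 3, against 8, 9 and 9. Under that setting pqn-41 summit 1 was lost in replicates 1 and 3, and ppfr-1 summit 3 in replicate 1. Windows with GAGAGA were 2 with 50 bp either side and 2 to 3 without a replicate, those with CACGTG 0 to 1 and those with CCGCCC 1 to 2. With 200 bp either side TGATAA was in 1 window and TAATTA in 1. Sets without a replicate hold fewer summits by construction, and other windows hold fewer or more bases. In all, 52 values moved by 1.5 times or less, those for summits within 100 bp included, and 27 moved by more. The 52 include counts of 0 that stayed 0, such as those of TATAAA.

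No paired analysis was possible because there is only 1 group. The unknown depth leaves no counting error for any region.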
